A study of Homo sapiens with 4 samples.

Results

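The data describe where SMAR1, a nuclear matrix protein also called BANP, was found by ChIP-seq around 2 neighbouring groups of miRNA genes on human chromosome 19. These are the miR-371 cluster, which runs from miR-371 to miR-373, and the adjoining C19MC array. The region was fixed as chromosome 19 from 54.15 to 54.4 Mb (hg19), with *MIR371A*, *MIR371B*, *MIR372*, *MIR373*, *MIR512-1*, *MIR515-1*, *MIR517A*, *MIR519A1* and *MIR498* as its anchors. Its peaks were chosen by the position of their centre, in a region where a peak was already known. Of 5709 peaks in HCT116 p53+/+ cells, 2 were centred in the window, and of 8217 peaks in HCT116 p53-/- cells also 2. The 4 peaks are called A to D here, from left to right. That peaks lie in the window is therefore a description and not a finding.

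HCT116 is a human colorectal carcinoma line, used here untreated with p53 (p53+/+) and without it (p53-/-). The labels do not say whether the p53-/- line is a single clone. Each line had 1 library precipitated with anti-SMAR1 antibody, so no difference between the lines has a replicate check and none was tested. The mock libraries precipitated with IgG were not analysed here. By the study's methods, the HCT116 p53+/+ library was sequenced less deeply than the HCT116 p53-/- library. The peak lists hold no reads, so the depth behind a peak cannot be given from them, and they hold no expression, so neither line could be checked against marker genes. Each peak carries a score from the MACS peak caller, the p-value of the peak as −10 log10. It ran from 50 to 1708.82 in HCT116 p53+/+ and from 50.03 to 3176.73 in HCT116 p53-/-, and is not scaled for depth, so it was read only as a rank within its own list.

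miRNAs are short RNAs cut from hairpins in longer transcripts, and they repress mRNAs that pair with their seed, bases 2 to 8 of the mature strand. The miR-371 cluster is known from human embryonic stem cells and germ cell tumours. C19MC is a tandem array of related miRNA genes found in primates, imprinted and expressed mainly in the placenta. Matrix attachment region proteins such as SMAR1 bind DNA where chromatin loops meet the nuclear matrix. The study asked which genes SMAR1 occupies when p53 is present and when it is absent.

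GENCODE release 44 mapped to hg19 placed 49 miRNA genes in the window, all of them on the plus strand. C19MC held 46 of these, from *MIR512-1* to *MIR516A2*, over 94.55 kb, and *MIR371A*, *MIR372* and *MIR373* followed after a gap of 26.453 kb. *MIR371B* and *MIR519A2* were not in that annotation and were placed by an exact match of their RefSeq hairpins to hg19. *MIR371B* (54290931 to 54290996) lay on the minus strand, opposite *MIR371A*.

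The sequences of peaks A and B, which lie at the miRNA genes, are shown because they carry a feature that all 4 peaks share. They are given on the plus strand of hg19 (GRCh37), and the capitals mark the longest uninterrupted run of TC and TG dinucleotides on either strand, written T(C/G).
Peak A, HCT116 p53+/+, chr19:54193338-54193425: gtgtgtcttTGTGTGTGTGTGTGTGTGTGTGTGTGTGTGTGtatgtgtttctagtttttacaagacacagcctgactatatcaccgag
Peak B, HCT116 p53-/-, chr19:54287064-54287117: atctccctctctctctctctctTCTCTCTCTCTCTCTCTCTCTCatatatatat

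The mature miRNAs next to peaks A and B are shown with their seeds in capitals, because some of these seeds occur in both clusters. miR-302a-3p and miR-17-5p, from clusters on chromosomes 4 and 13, are added for comparison. The sequences are from RefSeq (GRCh38.p14), which held mature forms for 48 of the 50 miRNA genes and anchors.
miR-520a-3p: aAAGUGCUucccuuuggacugu
miR-372-3p: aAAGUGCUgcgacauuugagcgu
miR-373-3p: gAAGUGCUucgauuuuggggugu
miR-371a-3p: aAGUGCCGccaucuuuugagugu
miR-371b-3p: aAGUGCCCccacaguuugagugc
miR-526b-3p: gAAAGUGCuuccuuuuagaggc
miR-1283: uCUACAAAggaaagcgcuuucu
miR-302a-3p: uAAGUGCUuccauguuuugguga
miR-17-5p: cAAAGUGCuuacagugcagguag

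miR-520a-3p, whose gene lies to the right of peak A, thus had the same seed as miR-372-3p and miR-373-3p, whose genes lie to the right of peak B. This seed was found in 12 mature miRNAs of the whole RefSeq set. C19MC held 5 of them (miR-520a-3p to miR-520e-3p), the miR-371 cluster 2 and the miR-302 cluster 4. miR-371a-3p and miR-371b-3p each had a seed of their own. miR-526b-3p shared its seed with miR-17-5p, and this seed overlaps that of miR-372-3p, displaced by 1 base, in AAGUGC. Among the anchors in C19MC, the 3p strands of *MIR519A1* and *MIR517A* had the seeds AAGUGCA and UCGUGCA, and that of *MIR512-1* had AGUGCUG. Those of *MIR515-1* and *MIR498* had AGUGCCU and AAGCACC.

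**Figure D1:**
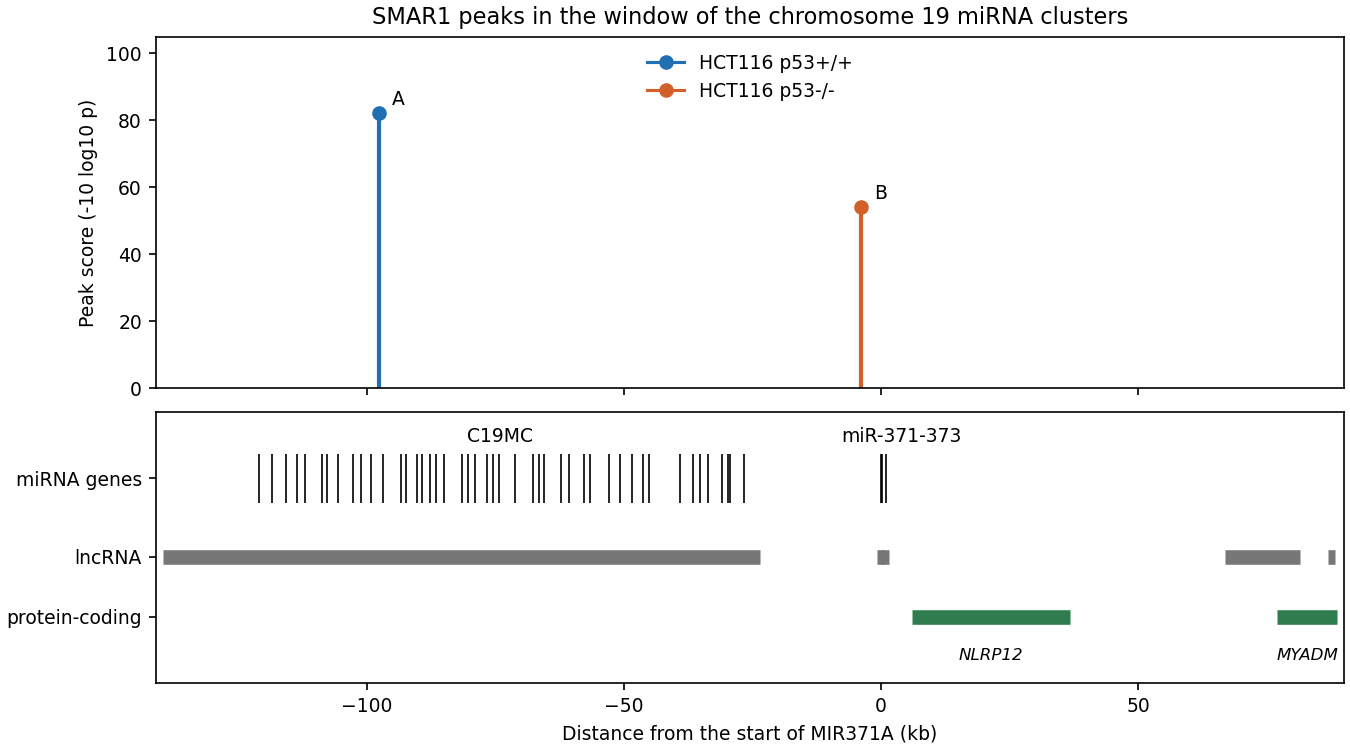
The upper panel plots the score of each peak centre (−10 log10 p) against its distance from the start of *MIR371A* in kb, with 1 library per cell line, and the lower panel shows the miRNA, lncRNA and protein-coding genes of the window. Peak A stands inside C19MC, peak B 3.839 kb left of *MIR371A*, and the right end of the window, which holds peaks C and D, is not drawn.

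The miR-371 cluster had a low-scoring SMAR1 peak within 5 kb upstream in HCT116 p53-/- cells and none within 5 kb in HCT116 p53+/+ cells. In HCT116 p53-/-, peak B was centred 3.839 kb upstream of *MIR371A* (54290929 to 54290995), 4.054 kb upstream of *MIR372* (54291144 to 54291210) and 4.869 kb upstream of *MIR373* (54291959 to 54292027). In HCT116 p53+/+, the nearest upstream peak of the same genes was peak A, at 97.548, 97.763 and 98.578 kb. The HCT116 p53+/+ library was the shallower of the pair, and the part of depth in the lack of a nearby peak was not tested. *MIR371B* points the other way, so that peak B lay 3.841 kb beyond its end.

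Peak B lay outside every annotated gene. The nearest gene start was that of the lncRNA gene ENSG00000269564 (54290182 to 54292422, plus strand), which spans *MIR371A*, *MIR372* and *MIR373*, and peak B was 3092 bp upstream of it. On the other side, the nearest miRNA gene was *MIR516A2* (54264387 to 54264476) at 22.614 kb, or *MIR519A2* (54265598 to 54265684) at 21.406 kb with the RefSeq hairpins added. The cluster itself, 1.099 kb from *MIR371A* to *MIR373*, held no peak in either line. It also held no T(C/G) run of 12 bp or more.

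Peak B was among the weakest of its list. Its score of 54.04 ranked 7442 of 8217, and 9.44% of HCT116 p53-/- peaks scored no higher. Its longest T(C/G) run was 22 bp and consisted of 11 TC units, with a further run of 14 bp next to it. The runs were followed by an alternating A-T stretch of 20 bp (54287108 to 54287127), of which 10 bp fell within the peak. Peaks A, C and D had no such stretch of 6 bp or more within 50 bp. Of the peaks scanned, 12.1% in HCT116 p53-/- and 9.79% in HCT116 p53+/+ had one. In the 1 kb around peak B, A and T made up 58.1% of the bases, against a median of 57% around HCT116 p53-/- peaks and 51.6% over the window. The 31 bases at its centre occurred 26 times in the assembled genome, 2 of them on chromosome 19, whereas the corresponding 31 bases of peaks A, C and D occurred once each. The share of reads at peak B that could have been placed elsewhere was not tested.

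C19MC held 1 SMAR1 peak in HCT116 p53+/+ cells and none in HCT116 p53-/- cells. Peak A lay between *MIR1283-1* (54191735 to 54191821) and *MIR520A* (54194135 to 54194219). It was centred 1560 bp beyond the end of *MIR1283-1* and 754 bp upstream of *MIR520A*, whose start was the nearest of any gene. *MIR526B* (54197647 to 54197729) started 4266 bp downstream of the peak and *MIR519B* 5086 bp. The stretch between *MIR1283-1* and *MIR520A* was 2313 bp long, within the range of 262 to 6036 bp between neighbouring C19MC genes (median 1893 bp). Peak A also lay in intron 2 of ENSG00000269842, a lncRNA gene of 10 exons (54151309 to 54267453, plus strand) that spans all of C19MC, 42.072 kb from its start.

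The anchors at the left end of C19MC had no upstream peak nearby in either line. *MIR512-1* (54169927 to 54170024), the first gene of the array, had its nearest upstream peak at 975.539 kb in HCT116 p53+/+ and at 545.544 kb in HCT116 p53-/-. *MIR498* (54177451 to 54177574) had them at 983.063 and 553.068 kb, and *MIR515-1* (54182257 to 54182339) at 987.869 and 557.874 kb. All 3 start to the left of peak A, so that peak A lay downstream of them, 23.357, 15.807 and 11.042 kb beyond their ends.

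The anchors in the right part of the array had peak A upstream in HCT116 p53+/+ only. *MIR517A* (54215522 to 54215608) had it at 22.141 kb and *MIR519A1* (54255651 to 54255735) at 62.27 kb. In HCT116 p53-/-, the nearest upstream peaks of these genes were at 591.139 and 631.268 kb. Peak B lay downstream of both, 71.482 kb beyond *MIR517A* and 31.355 kb beyond *MIR519A1*.

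Peak A had a score of 82.13 and ranked 1713 of 5709, and 70.0% of HCT116 p53+/+ peaks scored no higher. Its longest T(C/G) run, 32 bp of 16 TG units, was the longest under any of the 4 peaks. In the HCT116 p53+/+ list, 28.2% of peaks held a run at least as long. The runs of the other peaks were more ordinary for their own lists, with shares of 56.2% for peak B, 56.1% for C and 45.0% for D. A and T made up 53% of the 1 kb around peak A, below the median of 56.7% around HCT116 p53+/+ peaks.

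Peaks C and D lay to the right of the clusters, with no miRNA gene within 5 kb. Peak C, in HCT116 p53+/+, had a score of 87.51 (rank 1494 of 5709), the higher of the HCT116 p53+/+ peaks. Peak D, in HCT116 p53-/-, had a score of 52.91 (rank 7620 of 8217), and only 7.28% of its list scored no higher. The peaks did not overlap. Peak C carried the shortest run of the 4, 14 bp made of 6 TC units and 1 TG unit on the minus strand. Peak D carried 28 bp of 14 TG units on the minus strand, and its surroundings were poor in A and T (40.2% over 1 kb). The protein-coding genes *NLRP12*, an inflammasome-related receptor gene, and *MYADM*, which lie to the right of the miR-371 cluster, held no peak centre in either line.

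**Figure D2:**
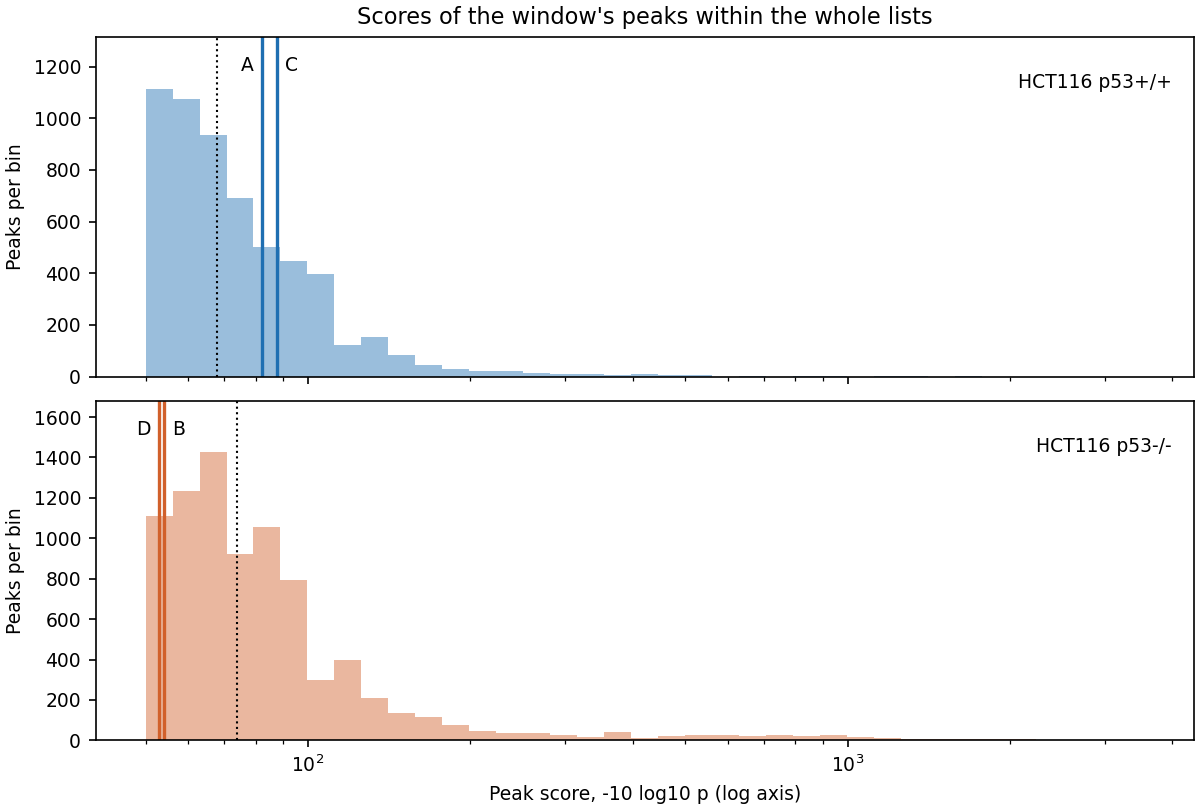
Histograms show the number of peaks per score bin (log axis) for all peaks of each list, with dotted lines at the list medians and solid lines at peaks A to D. Peaks A and C lie above the HCT116 p53+/+ median of 67.86, and peaks B and D lie near the low end of the HCT116 p53-/- list, below its median of 73.93.

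Both HCT116 p53+/+ peaks thus scored above the median of their list and both HCT116 p53-/- peaks below it. The score depends on the depth of a library, and the depths were unequal, so this does not compare the strength of binding between the lines.

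No peak of the window was shared by the lines. In the whole lists, 20.2% of HCT116 p53+/+ peaks and 13.5% of HCT116 p53-/- peaks overlapped a peak of the other line by at least 1 bp. Peaks A and B had their nearest peak of the other line in each other, 93.709 kb apart.

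The window held 8 peaks per Mb in each line. Chromosome 19 held 3.33 per Mb in HCT116 p53+/+ (186 peaks) and 4.60 in HCT116 p53-/- (257 peaks), and the assembled genome 1.96 and 2.87. Among 11469 non-overlapping windows of 250 kb, 8.5% held at least 2 HCT116 p53+/+ peaks and 16.1% at least 2 HCT116 p53-/- peaks, so that this number of peaks was not rare in either line. The nearest peaks outside the window were 199.6 kb beyond its right edge in HCT116 p53+/+ (54599518 to 54599704, score 96.88) and 199.8 kb beyond it in HCT116 p53-/- (54599704 to 54599907, score 59.05). On the left they were 955.6 and 525.6 kb away.

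Among the 49 miRNA genes of the window, 2 had an HCT116 p53+/+ peak within 5 kb upstream (4.08%), namely *MIR520A* and *MIR526B*. In HCT116 p53-/-, 3 had one (6.12%), namely *MIR371A*, *MIR372* and *MIR373*. Within 10 kb upstream the counts were 6 in HCT116 p53+/+ and 3 in HCT116 p53-/-, so that the order of the lines turned round. Over all 3049 annotated miRNA genes, the shares were 1.51% (46 genes) and 2.07% (63 genes). The genes of the window are not independent, since those of each line share a single peak, and the region was selected with peak B known. Ordered by distance, the 754 bp of *MIR520A* was number 13 of the 46 HCT116 p53+/+ distances. The distances of *MIR371A*, *MIR372* and *MIR373* were numbers 54, 57 and 63 of the 63 in HCT116 p53-/-, so that *MIR373* was the last gene within 5 kb.

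All 4 peaks held a T(C/G) run of at least 12 bp (95% Wilson interval 51.01 to 100%, counting error only). In the whole lists, 59.4% of HCT116 p53+/+ peaks and 76% of HCT116 p53-/- peaks held such a run. The interval pools peaks of both lists, whose shares differ, and so describes neither list. With 2 peaks per line, the window could not be told apart from the lists in this respect. The study found the T(C/G) repeat by a motif search in the sequences of these same peak lists. The shares of peaks with a run, and of runs under a peak, are therefore descriptions and not separate support for the repeat.

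**Figure D3:**
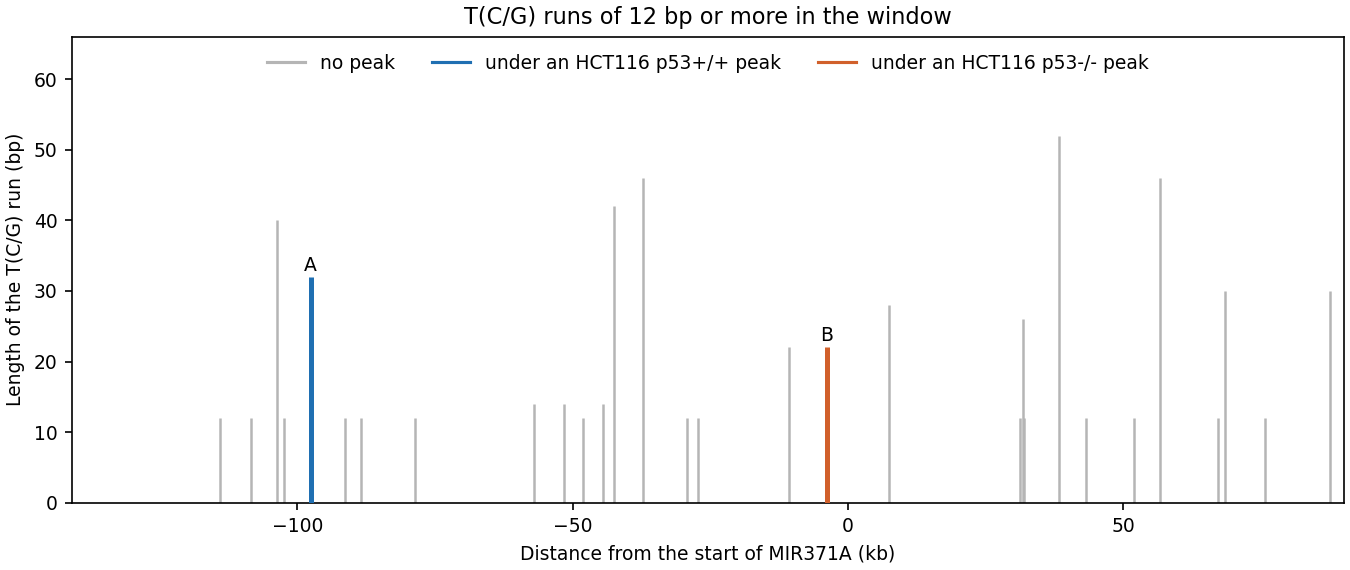
Each vertical line is a T(C/G) run of at least 12 bp in the window, with its length in bp plotted against its distance from the start of *MIR371A* in kb. Runs under peaks A and B are coloured by cell line, the right end of the window is not drawn, and the longest runs, of up to 52 bp, are grey, that is, without a peak.

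Most T(C/G) runs of the window had no peak. The window held 61 runs of at least 12 bp, 244 per Mb against 177 per Mb on chromosome 19 and 129.5 per Mb in the assembled genome. C19MC held 16 of them over 94.55 kb, the stretch between the clusters 3, and the part to the right of *MIR373* 42 over 107.973 kb. Many of these 42 lay close together, away from the miRNA genes, so the density of the window is not that of C19MC. In HCT116 p53+/+, 2 runs lay under a peak (3.28%, 95% Wilson interval 0.904 to 11.2), against 2.87% on chromosome 19 and 1.53% over the genome. In HCT116 p53-/-, 3 runs lay under a peak (4.92%, interval 1.69 to 13.5), of which 2 were in peak B, against 4.06% on chromosome 19 and 2.81% over the genome. Both intervals include the share of chromosome 19 and that of the genome. They hold counting error only and take the runs as independent, which neighbouring runs, such as the 2 in peak B, are not.

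The 5 longest runs of the window, of 40 to 52 bp, had no peak, and 3 of these 5 lay within C19MC. The runs of peaks A, D, B and C were numbers 6, 9, 12 and 24 by length, ties included. A peak lay over none of the 26 runs of 12 or 13 bp, 2 of the 20 runs of 14 to 19 bp, 2 of the 7 runs of 20 to 29 bp and 1 of the 8 runs of 30 bp or more. Over the genome, the share of runs under a peak rose with length. It was 0.591% in HCT116 p53+/+ and 0.989% in HCT116 p53-/- for runs of 12 or 13 bp, and 4.06% and 7.58% for runs of 30 bp or more.

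The 10 bp p53 consensus, which has the same letters on both strands, was searched in the 4 peaks with 50 bp on each side. None of the 4 held it, and of the peaks scanned it was held by 2.61% in HCT116 p53+/+ and 3.17% in HCT116 p53-/-. This says only that these letters are not in these stretches, and p53 itself was not measured in these libraries. In separate ChIP with PCR, the study reported p53 at the miR-373 promoter in HCT116 p53+/+ cells. With the same method it reported SMAR1 there as diminished in HCT116 p53+/+ and enriched in HCT116 p53-/- cells. For the region upstream of the miR-371 cluster it also reported SMAR1 binding by ChIP with PCR in other cell lines. Purified SMAR1 bound this DNA, and a reporter responded to SMAR1 unless the site was deleted. By its text, the study had selected miR-373 for a p53 motif within 50 bp of peaks of the HCT116 p53+/+ list. Peak B is in the HCT116 p53-/- list, so the lack of the motif there does not bear on that selection.

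**Figure D4:**
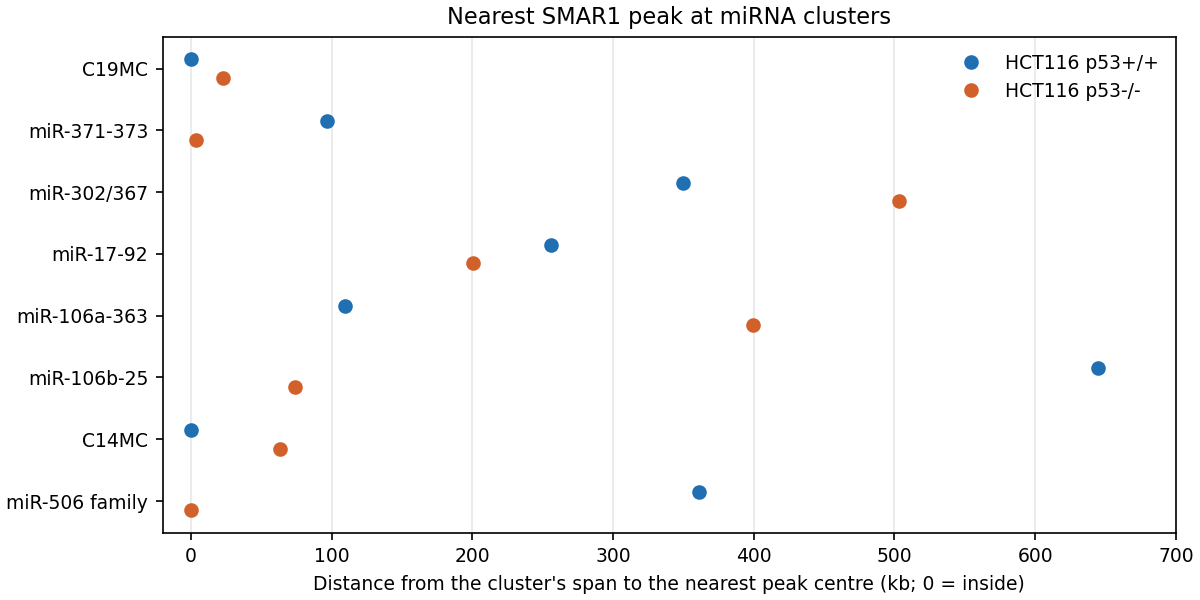
The distance in kb from the span of each miRNA cluster to the nearest peak centre is plotted for each cell line, with 0 for a peak inside the span. C19MC and miR-371 each have a peak within 3.839 kb in 1 of the lines, as do C14MC and the miR-506 family, while the clusters miR-302, miR-17-92, miR-106a-363 and miR-106b-25 have theirs at 73.954 kb or more.

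Other miRNA clusters were set beside these, either for a like seed or for their size. miR-302, the other cluster known from embryonic stem cells, had its nearest peaks 349.6 kb away in HCT116 p53+/+ and 503.1 kb away in HCT116 p53-/-. For miR-17-92, which promotes cell growth, the distances were 256.0 and 200.6 kb. For its paralogs they were 109.3 and 399.5 kb (miR-106a-363) and 644.8 and 73.954 kb (miR-106b-25). None of these 4 clusters had a peak in its span with 10 kb on each side, and these spans held 0 to 3 T(C/G) runs each.

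Each of the large arrays had a peak in 1 line. C14MC, an imprinted array on chromosome 14, held an HCT116 p53+/+ peak (101504673 to 101505004, score 69.8), and the nearest HCT116 p53-/- peak was 63.5 kb from the array. The miR-506 family on chromosome X held an HCT116 p53-/- peak (146336042 to 146336086, score 81.61), and the nearest HCT116 p53+/+ peak was 361.3 kb from the family. The 3 arrays span more DNA than the other clusters, 64.8 to 115.0 kb with the added 10 kb on each side against 20.5 to 20.9 kb, and no difference between clusters was tested.

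Genes described as targets of miR-371 or of miRNAs with a like seed were listed, 11 in all. They were *LATS2*, *CD44*, *DKK1*, *TXNIP*, *TGFBR2*, *RHOC*, *CDKN1A*, *PPP6C*, *RELA*, *SIRT1* and *MBD2*. In each line, 1 of the 11 had a peak in the gene or up to 5 kb upstream. Of all protein-coding genes, 11.6% had one in HCT116 p53+/+ and 16.7% in HCT116 p53-/-. With 11 genes, the list could not be told apart from these shares. In HCT116 p53+/+ the target gene with a peak was *RELA*, which encodes a subunit of NF-kappa-B, with 3 peaks. They were centred 1114, 1352 and 8338 bp downstream of its start, with scores of 67.98, 54.99 and 82.94. In HCT116 p53-/- it was *RHOC*, which encodes a small GTPase of cell movement. Its peak (chr1:113250077-113250204, score 112.1) was centred 84 bp upstream of the gene's start. *LATS2*, a kinase of the Hippo pathway, and *CD44*, a cell surface receptor, had no such peak in either line.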

How the data were processed

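The authors trimmed reads with cutadapt 1.2.1, aligned them to hg19 with Bowtie2 2.2.1 and called peaks with MACS 1.4.2 (versions from the submitters' processing notes), then filtered them on fold enrichment. The threshold, and whether IgG served as the MACS control, are not given in the sources used here. The deposited lists give positions and the MACS score, −10 log10 of the p-value, whose lowest value matches a cutoff of 1e-05.

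Peaks were read in 1-based coordinates on GRCh37 with GENCODE release 44, and the members, lists and windows were chosen with earlier results of these data known. Named genes are the anchors, the miRNA genes beside each peak, genes holding a peak, and the listed target genes. Some other genes of the window are named for their position. Distances run from the peak centre. The T(C/G) shares of the window carry 95% Wilson intervals and the other shares none. No p-value was computed, as each line had 1 library. Peaks without a complete sequence (25 and 31) were left out of the T(C/G) scan. The p53 and A-T scans covered 5590 HCT116 p53+/+ and 8167 HCT116 p53-/- peaks with 50 bp on each side. With 500 bp, the p53 scan covered 5577 and 8165. Listed miRNA genes that GENCODE lacked were placed by a unique exact match of their RefSeq hairpin. The functions were tested on simulated data, with 100% of 2000 items correct in each check. Python 3.11.15, pysam 0.24.0 and matplotlib 3.10.9 were used. A gene and the positions and sequences of peaks C and D are not reported here.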

Additional observations from a re-analysis of the deposited data

How the results depend on the processing

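Of 52 alternatives, 35 left a value within 1.5 times (for shares of runs, within the Wilson interval) and 17 moved it. Those on tied ranks and on peak edges could change a value only slightly, so the 35 is not a measure of stability. The Wilson intervals were wide. For runs of at least 20 bp, the share under a peak went from 3.28 to 6.67% in HCT116 p53+/+. In HCT116 p53-/- it went from 4.92 to 13.3%, and both were counted as unmoved. No peak was shared under any overlap rule, and distances from the peak edge stayed close. With peaks at or above the median score only, HCT116 p53-/- kept 0 peaks in the window and 0 miRNA genes with a peak within 5 kb upstream, since peaks B and D scored below it. Widening the window by 100 kb on each side gave 4.44 peaks per Mb in both lines. Relative to chromosome 19 instead of the genome, the density ratio fell from 4.07 to 2.4 in HCT116 p53+/+ and from 2.79 to 1.74 in HCT116 p53-/-. In HCT116 p53+/+, 6 miRNA genes had an upstream peak within 10 kb and 1 within 1 kb, and in HCT116 p53-/- 0 within 1 kb. With T(C/G) runs of at least 20 bp, 1 HCT116 p53+/+ peak held one. With 500 bp added on each side, the p53 consensus was found at both HCT116 p53+/+ peaks (2), and at 0 in HCT116 p53-/-, against 21.8% and 23.5% of the lists. The 20 bases at the centre occurred 9 times for peak A, 250 for B, 2 for C and 139 for D. With 50 kb upstream, 2 (HCT116 p53+/+) and 3 (HCT116 p53-/-) target genes had a peak. No paired analysis was possible because each line had 1 library, and none could be left out. The HCT116 p53+/+ library was the shallower, and an absent peak does not show absent binding in either line.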
